A study of Caenorhabditis elegans with 24 samples.

Results

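The comparison set embryos of Caenorhabditis elegans collected 500 min after the 4-cell stage against embryos collected at 410 min, the last 2 of 8 times in a small RNA timecourse. Both groups were whole embryos of strain N2, the laboratory wild type, and the labels name no treatment and no transgene. They were taken by mouth pipette from adults that had been cut open, and each sample pooled 50 embryos. There were 3 libraries at 500 min and 3 at 410 min, 6 of the 24 in the series, and the members were chosen by these stage labels alone. The deposited table lists 434 mature miRNA arms, of which 297 had at least 1 read in the series and 227 in these 6 libraries. Of the 297, 128 had enough reads for the test, and 4 of those had no read in the 6 libraries.

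A miRNA is cut out of a hairpin precursor as a short duplex, and its strands are named the 5p and the 3p arm after their place in the hairpin. Usually a single arm is loaded into an Argonaute protein, which then pairs with messenger RNAs through the seed near the 5′ end of the arm and lowers their output, while the other arm is mostly degraded. Late in embryogenesis the worm elongates inside the eggshell while muscle, neurons, glia, epidermis and gut differentiate. In worm embryos the best studied miRNAs are the mir-35 family, which mother and early embryo supply and which the embryo needs to live, and single miRNAs restricted to a tissue, such as mir-1 in muscle and lsy-6 in a taste neuron.

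At 500 min the libraries held 606287, 221286 and 315090 reads in replicates 1, 2 and 3. The 410 min libraries held 575791, 333135 and 1594151 reads, so low counts at 500 min are the less precise ones. Counts, floors and intervals cover counting error only, since reads were amplified in 15 cycles of PCR and no molecular identifiers are described. Log2 levels correlated at 0.901 to 0.916 between the replicates of 500 min, at 0.921 to 0.942 between those of 410 min, and at 0.873 to 0.916 between libraries of different stages. Replicates differed by far more than sampling noise, with a chi-square per degree of freedom that was nowhere under 73.7, so each library was counted as its own sample. Nothing in the labels says that replicates came from separate cultures, so p-values measure only the spread between these samples. Levels are given as counts per 1000000 counts (CPM) over library sizes scaled by TMM, a method that assumes that most miRNAs do not differ between libraries. Since the scaling factors of these libraries lie below 1, such CPM values add up to more than CPM over plain totals would, and shares of all counts are given where abundance itself matters.

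Few arms passed the test, and those called higher rose steeply. The common coefficient of variation (spread over mean) between libraries was 0.706 in the fit. An arm that did not pass was therefore not shown to be unchanged. Of the 128 arms tested, 8 passed the edgeR quasi-likelihood test at an adjusted p under 0.05, which is 6.25%, and 14 had an unadjusted p under 0.05. The 3 that rose (2.34%) were miR-245-3p, miR-789-3p and miR-788-3p. The 5 that fell (3.91%) were miR-39-5p, miR-41-5p and miR-35-3p of the mir-35 family, miR-43-3p and miR-8199-5p. Over all 128 the median log2 fold change was -0.09 (TMM), 0.04 (size factors of DESeq2) or -0.30 (total counts). The 3 rises were called under each scaling, while 2 arms fell with the size factors of DESeq2 and 8 with total counts. Without one library at a time the rises stayed at 3, and the falls numbered between 1 (without 500 min replicate 2) and 6 (without 410 min replicate 2, filter and factors computed anew). They numbered 2 or 3 without 500 min replicate 1 and 2 without replicate 3 of either stage, and 3 without 410 min replicate 2 when filter and factors were kept. In bulk samples such as these, fewer cells of a type and less RNA per cell cannot be told apart.

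**Figure D1:**
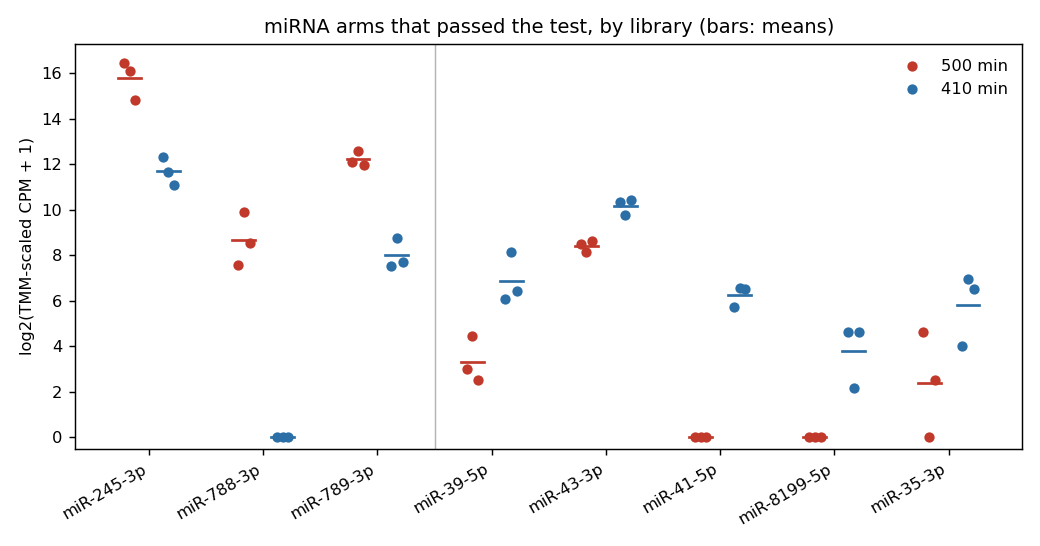
Level of the 8 arms that passed the test in each library, as log2(TMM-scaled CPM + 1), with the 3 libraries of 500 min in red left of the 3 of 410 min in blue and a bar at each mean. The libraries of the stages do not overlap for 7 of the 8 arms; miR-35-3p is the exception.

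miR-245-3p had the highest level of the 3 arms that rose. It had 90156, 69224 and 28825 CPM in the 500 min libraries, against 5075, 3228 and 2195 CPM in the 410 min libraries. Every 500 min library lay far above every 410 min library, and within each stage replicate 1 was highest and replicate 3 lowest. The means were 62735 ± 31176 CPM at 500 min and 3499 ± 1459 CPM at 410 min (SD, n = 3 each), a 17.9-fold difference (log2 fold change 4.16 ± 0.73, SE; edgeR adjusted p 0.000398). As a share of all counts it made up 4.26% ± 2.23 at 500 min and 0.282% ± 0.132 at 410 min, and it was among the 10 arms with the highest mean CPM over these 6 libraries. By name, the WBcel235 annotation puts the hairpin on chromosome I at 7887371 to 7887467, outside protein-coding genes; the build the authors used is not given in the sources used here. The 5p arm of mir-245 had no read in the 6 libraries.

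miR-789-3p changed by about the same factor from a lower base. It had 4362, 6199 and 3980 CPM at 500 min, against 185, 426 and 207 CPM at 410 min. Again no library of one stage reached into the range of the other, and replicate 2 was the highest at both. The log2 fold change was 4.15 ± 0.93 (17.8-fold; edgeR adjusted p 0.00306), from means of 4847 ± 1186 CPM at 500 min and 273 ± 133 CPM at 410 min. The annotation holds 2 copies of this hairpin on chromosome IV, mir-789-1 at 16740693 to 16740789 and mir-789-2 at 17309307 to 17309403. Reads from the copies cannot be told apart in a table by arm. Copy mir-789-1 overlaps an exon of Y51H4A.24 on the same strand, and whether fragments of that transcript were counted here was not tested.

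miR-788-3p had reads at 500 min alone of these stages. It had 81, 138 and 77 reads in the 500 min libraries and 0 reads in each 410 min library. With 3 counts over all of 410 min as the floor, it was at least 234-fold higher at 500 min (edgeR adjusted p 0.000887), with a mean of 505 ± 402 CPM. It passed the filter through its reads at 500 min alone, so that p-value is not separate from the rise. With no filter the edgeR adjusted p was 2.34e-05. The spread at 500 min was wide, with 190, 957 and 367 CPM in replicates 1, 2 and 3. The 410 min libraries had 2503077 reads in all, more than the 1142663 at 500 min, so the absence of reads at 410 min does not come with shallower sequencing. mir-788 lies on the X chromosome at 8485294 to 8485371, outside protein-coding genes, and its 5p arm had no read. Each of the 3 rises kept its call under all 22 alternative settings and left-out libraries, with adjusted p of at most 0.00701 for miR-245-3p, 0.0130 for miR-788-3p and 0.0454 for miR-789-3p.

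**Figure D2:**
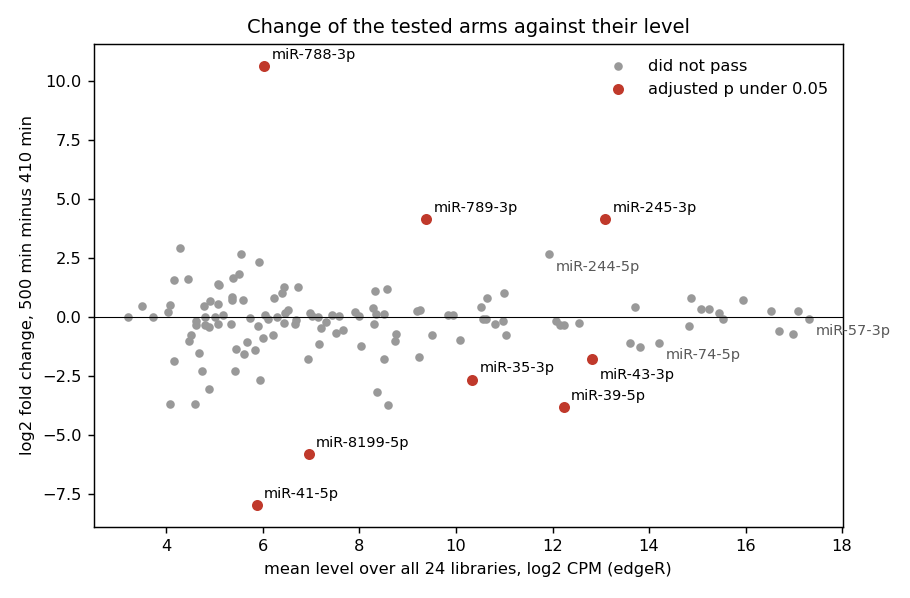
Log2 fold change of each of the 128 tested arms (500 min minus 410 min, y axis) against its mean level over all 24 libraries (x axis, log2 CPM), with arms that passed in red. The most abundant arms lie near 0, and the fitted values of miR-788-3p, miR-41-5p and miR-8199-5p, each with no read at one of the stages, depend on the prior count and are not bounds.

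Further arms were higher in all 3 libraries of 500 min without passing the test. miR-244-5p had 18683, 27616 and 32719 CPM at 500 min, against 1986, 5281 and 5291 CPM at 410 min. Its log2 fold change was 2.65 ± 1.11 (edgeR adjusted p 0.287), and it took 1.76% ± 0.431 of counts at 500 min and 0.328% ± 0.153 at 410 min. DESeq2, limma-voom and a fit of the 6 libraries alone called it higher, with adjusted p of 0.0477, 0.00104 and 0.00282. Its hairpin lies on chromosome I at 4684316 to 4684414, and the 3p arm had no read. Arms of lower level had the same order. miR-1022-3p had 250.5, 388 and 186 CPM at 500 min and 44.7, 30.9 and 51.4 CPM at 410 min. miR-790-5p had 131, 76.3 and 66.8 CPM at 500 min and 14.9, 10.3 and 10.1 CPM at 410 min. Neither overlapped between the stages. Their edgeR adjusted p was 0.488 each, and the fit of 6 libraries called them (0.0173 and 0.0324). miR-790-5p passed the filter through its reads at 500 min alone, so its order and p-values are not separate from the rise.

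Over all tested arms, the libraries of the stages did not overlap for 27 (21.1%), of which 12 were higher at 500 min (9.38%) and 15 lower (11.7%). By unscaled share of counts 31 did not overlap (24.2%), 10 of them higher (7.81%) and 21 lower (16.4%). Without a difference between the stages, 3 against 3 libraries separate fully with a probability of up to 0.1 per arm. miR-242, chosen for mention after its values were seen, is one of the 12 and was also called by the fit of 6 libraries (edgeR adjusted p 0.0324 there and 0.816 over all 24). It had 2245, 2059 and 1842 CPM at 500 min and 884, 965 and 826 CPM at 410 min. The others among the 12 beside those named above were miR-75-5p, miR-231-3p, miR-76-3p, miR-72-5p and miR-87-3p, whose log2 fold changes lay between 0.27 for miR-72-5p and 2.32 for miR-75-5p. miR-76-3p, for example, had 1297, 1297 and 1150 CPM at 500 min and 914, 924 and 1028 CPM at 410 min, a narrow gap between tight groups. None of these 5 passed the test under any setting tried.

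The timecourse places the rises late. miR-245-3p averaged 305 CPM at 270 min, 377 CPM at 330 min, 3499 CPM at 410 min and 62735 CPM at 500 min. Its mean of 1401 ± 1936 CPM at 60 min rested on replicate 3, with 270, 296 and 3637 CPM in replicates 1, 2 and 3. miR-789-3p averaged 42.5 CPM at 330 min, 273 CPM at 410 min and 4847 CPM at 500 min. miR-788-3p had stage means of at most 1.36 CPM at the 7 earlier times, from 6 reads in all. miR-244-5p averaged 123 CPM at 330 min, 4186 CPM at 410 min and 26339 CPM at 500 min. Thus miR-788-3p had almost no reads before 500 min, whereas the means of the other 3 at 410 min already lay above those at 330 min. miR-790-3p, from a hairpin on chromosome IV that lies 4299 bases from mir-228, stood at 976 ± 248 CPM at 500 min and 948 ± 157 CPM at 410 min.

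**Figure D3:**
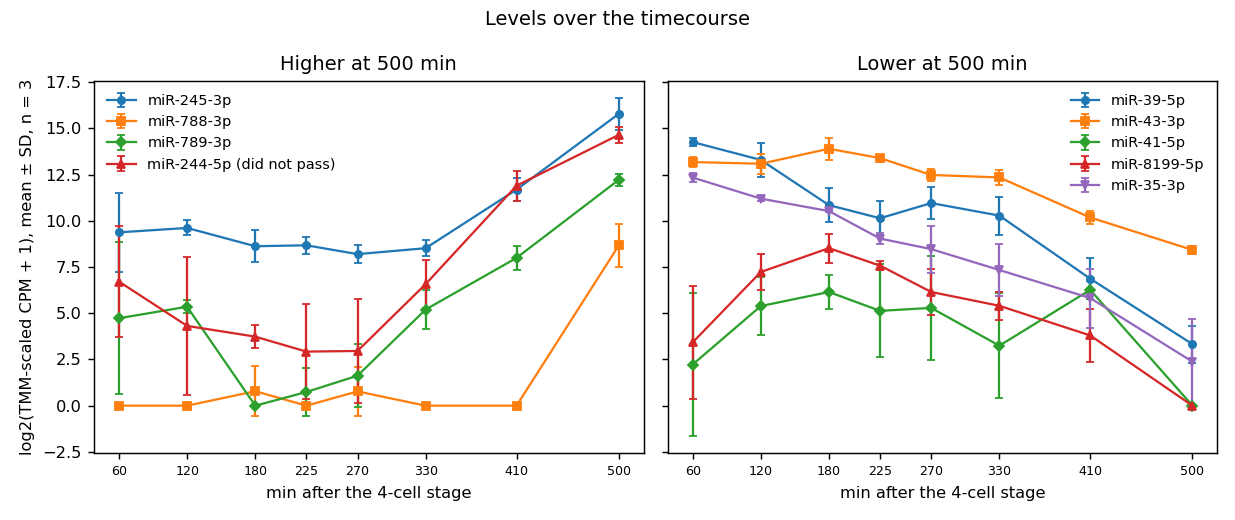
Levels at the 8 times as log2(TMM-scaled CPM + 1), mean and SD over 3 libraries, for the arms that rose together with miR-244-5p, which did not pass (left), and for the arms that fell (right). The 4 arms on the left have their highest mean at 500 min, and miR-41-5p, at 19.7 CPM at 330 min and 78.5 CPM at 410 min, differs in course from the other 4 arms on the right, whose means at 410 min are below those at 330 min.

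Most of the arms that fell belong to the mir-35 family, whose levels were already low at 410 min. This family of 8 hairpins had 16 arms in the table, 13 with reads at 410 or 500 min and 14 tested, of which 2 had no read at either stage. Of the 14, 3 fell, none rose and 11 did not pass, against 3.91% of all arms called lower; 1 fell with the size factors of DESeq2 and 4 did with total counts. The family's median log2 fold change was -1.005, or -0.92 relative to all arms (between -0.88 and -0.92 with the 3 scalings); with arms that had no reads at 1 stage set to their bounds it was -0.52. Its summed share of counts was 0.0698%, 0.0375% and 0.0346% in the 500 min libraries and 0.128%, 0.122% and 0.139% in the 410 min libraries. These sums do not overlap between the stages. Of the family's 615 reads at 500 min, 297 were miR-42-5p and 269 were miR-36-3p, arms that overlapped between the stages and did not pass.

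miR-39-5p had the smallest adjusted p of the 5 falls. It had 3, 3 and 1 reads at 500 min, against 31, 81 and 92 reads at 410 min, or 7.02, 20.8 and 4.77 CPM against 66.1, 278 and 84.4 CPM. The log2 fold change was -3.83 ± 0.83 (edgeR adjusted p 0.00239), with 10.9 ± 8.68 CPM at 500 min and 143 ± 117.5 CPM at 410 min. Replicate 2 was the highest at both stages: without 410 min replicate 2 the log2 fold change was -2.93, and without 500 min replicate 2 it was -4.45. The call was lost without 500 min replicate 1 when the filter and factors were computed anew (0.0576) and with limma-voom (log2 fold change -3.23, adjusted p 0.156). The hairpin lies on chromosome II at 11538089 to 11538175, and its 3p arm had no read in the 6 libraries.

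miR-41-5p had no read in any 500 min library, against 24, 27 and 100 reads in the 410 min libraries. With 3 counts over all of 500 min as the floor, it was at least 21.2-fold lower (edgeR adjusted p 0.0469), from 78.5 ± 23.7 CPM at 410 min. Its course was not that of miR-39-5p: miR-41-5p averaged 33.7 CPM at 60 min and 78.5 CPM at 410 min, whereas miR-39-5p averaged 19722 CPM at 60 min. The 60 min mean of miR-41-5p came from 9 reads, all in replicate 1. Leaving out any library but 410 min replicate 1 ended the call in at least 1 of the fits run (edgeR adjusted p 0.0595 to 0.247; 0.0396 without 410 min replicate 2 computed anew), as did scaling with DESeq2 size factors (0.0569) and thinning of the 6 libraries to equal depth (0.0641). The other arm of this hairpin, miR-41-3p, had no read in any of the 24 libraries, and miR-39-3p had 186 in all 24, although in this family the 3p arm is the one usually loaded. How the table assigns reads to arms and to similar members was not tested, so both falls hold for the arms as the table names them.

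miR-35-3p was called lower with overlapping libraries. It had 10, 0 and 1 reads at 500 min and 7, 36 and 98 reads at 410 min, so that 500 min replicate 1, with 23.4 CPM, lay above 410 min replicate 1, with 14.9 CPM. The log2 fold change was -2.66 ± 0.83 (edgeR adjusted p 0.0469), -4.63 without 500 min replicate 1, -3.36 without 410 min replicate 1 (filter and factors computed anew), -1.996 with a minimum count of 30 and -3.59 with thinned libraries. With the replicate number of the labels as a block the call was lost (adjusted p 0.0538). It was also lost without replicate 2 or 3 of either stage (0.131 to 0.346), with DESeq2 size factors (0.0569), with no filter or a stricter one and with limma-voom (up to 0.378).

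miR-36-3p, the family's most abundant arm at 410 min, did not pass. It had 433, 222 and 248 CPM at 500 min, against 944, 385 and 882 CPM at 410 min, with an overlap through replicate 1 of 500 min and replicate 2 of 410 min. Its log2 fold change was -1.28 ± 0.49 (edgeR adjusted p 0.162), and it was called lower with the replicate block (0.0405), with total counts (0.0214) and by the DESeq2 test (0.0490). miR-40-3p, next in order of p, had 0, 1 and 0 reads at 500 min and 0, 2 and 38 reads at 410 min, so its pooled level rested on 410 min replicate 3. The first hairpin of the family's cluster on chromosome II, mir-35, begins at 11537608 and the last, mir-41, ends at 11538404, on the strand opposite to Y62F5A.9 and within its intron, while mir-42 lies elsewhere on that chromosome. Members are similar in sequence and could share reads, which makes single arms less certain than their sum.

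miR-43-3p, which carries the seed of the mir-2 family, fell as well. It had 361, 284 and 391 CPM at 500 min, against 1302, 865 and 1382 CPM at 410 min. The groups lay well apart and each was tight, with 345 ± 55.1 CPM at 500 min and 1183 ± 278 CPM at 410 min. The log2 fold change was -1.77 ± 0.44 (edgeR adjusted p 0.00752). The call was lost without 500 min replicate 2 (0.0797, and 0.120 with the filter and factors computed anew), with no filter (0.223), with a minimum count of 30 (0.213) and with limma-voom (0.0796). The 5p arm of the hairpin had 2, 3 and 1 reads at 500 min and 31, 11 and 84 reads at 410 min, without overlap, but did not pass (log2 fold change -2.69 ± 1.20, edgeR adjusted p 0.315).

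mir-43 (11889910 to 11890007) sits between mir-42 and mir-44 on chromosome II, 4 bases after mir-42 and 15 bases before mir-44. miR-44-5p, the arm of the next hairpin that had reads, had 47766, 39535 and 47358 CPM at 500 min and 49416, 42377 and 51661 CPM at 410 min. These ranges overlap, and the log2 fold change was -0.09 ± 0.34. On the other side, miR-42-5p had 492, 263 and 234 CPM at 500 min and 445, 371 and 826 CPM at 410 min (log2 fold change -0.73 ± 0.66, edgeR adjusted p 0.816). The other arm, miR-42-3p, had 2, 6 and 0 reads at 500 min and 14, 28 and 16 reads at 410 min, or 4.68, 41.6 and 0 CPM against 29.8, 96.1 and 14.7 CPM. It overlapped and did not pass, but its log2 fold change of -1.79 ± 1.06 (edgeR adjusted p 0.618) was close to that of miR-43-3p. The differences in change between these neighbours were not tested.

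The fifth fall, miR-8199-5p, rests on few reads. It had 0 reads in each 500 min library and 11, 1 and 26 reads in the 410 min libraries. By the same floor it was at least 5.34-fold lower at 500 min (edgeR adjusted p 0.0469). Its level had been higher before, with 405 CPM at 180 min and 45.0 CPM at 330 min. The annotation entry of that name lies on chromosome II at 2136552 to 2137329, a span far longer than those of the other hairpins located here. Leaving out any library but 410 min replicate 2 ended the call (edgeR adjusted p 0.0687 to 0.275), as did DESeq2 size factors, no filter, a stricter filter, limma-voom and thinning (0.0582 to 0.191). Its 3p arm had 1, 0 and 9 reads at 500 min and 5, 2 and 15 reads at 410 min.

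miR-74-5p, an arm of a hairpin listed in the mir-72 family, did not pass in the fit of all libraries. It was called lower with the replicate block (edgeR adjusted p 0.112 without the block and 0.0405 with it). Total counts (edgeR adjusted p 0.00557) and the DESeq2 test (0.0268) called it too. It had 1274, 1068 and 907 CPM at 500 min, against 2625, 1528 and 2854 CPM at 410 min, without overlap, and a log2 fold change of -1.11 ± 0.39. Among the 15 arms that were lower in all 3 libraries of 500 min were also miR-64-5p, miR-65-5p, miR-66-5p, miR-67-3p, miR-72-3p, miR-73-3p, miR-45-3p, miR-56-3p and miR-87-5p, with log2 fold changes between -2.30 for miR-56-3p and -0.36 for miR-66-5p. miR-67-3p had 286, 395 and 138 CPM at 500 min and 910, 985 and 764 CPM at 410 min (log2 fold change -1.70 ± 0.84, edgeR adjusted p 0.416). miR-64-5p alone of these 9 was called under another setting, with total counts (0.00592).

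Among the other families examined, miR-43-3p was the single arm that passed. Introns of gcn-1 on chromosome III hold the clustered hairpins mir-229, mir-64, mir-65 and mir-66. None of their 8 tested arms passed (1 fell with total counts), which says little where 6.25% of all arms passed. Their median log2 fold change was -0.12, against -0.09 for all arms, while their summed share was 6.62%, 6.71% and 4.57% at 500 min and 11.6%, 12.0% and 8.83% at 410 min. The sums do not overlap, and 3 of the 8 arms, miR-64-5p, miR-65-5p and miR-66-5p, were lower in all 3 libraries of 500 min by CPM, against 11.7% of all tested arms. miR-64-5p had 42264, 48292 and 29469 CPM at 500 min and 70793, 62755 and 62711 CPM at 410 min (log2 fold change -0.71 ± 0.35, edgeR adjusted p 0.416). For miR-65-5p the log2 fold change was -0.60 ± 0.39, and for miR-229-5p, which overlapped, it was -1.12 ± 0.54 (edgeR adjusted p 0.414).

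Of the mir-58 family, the worm relatives of insect bantam, none of 7 tested arms passed, and their share was 23.2%, 15.5% and 23.6% at 500 min and 22.1%, 16.6% and 20.1% at 410 min. Its leading arm miR-82-3p differed by 0.26 ± 0.46 on the log2 scale, and miR-81-3p by 0.35 ± 0.60. No arm passed among 8 of the mir-51 family (median -0.78), 4 of the mir-44 family (-0.23), 6 of the mir-72 family (-0.07; 1 fell with total counts), 3 of mir-75 and mir-79 (0.06), 2 of the mir-50 family (-0.13) and 3 of mir-49 and mir-83, relatives of miR-29 (0.08). In lists this small, the mir-58 family included, the lack of a call says little where 6.25% of all arms passed. The mir-2 family had 1 call, miR-43-3p, among 6 tested arms, against 3.91% of all arms called lower, with a median of -0.04. Medians that close to 0 changed sign with the scaling. Those of the mir-64 cluster, the mir-2, mir-72 and mir-50 families were positive with the size factors of DESeq2, and those of mir-75 and mir-79, of mir-49 and mir-83 and of the tissue and heterochronic lists described next were negative with total counts.

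**Figure D4:**
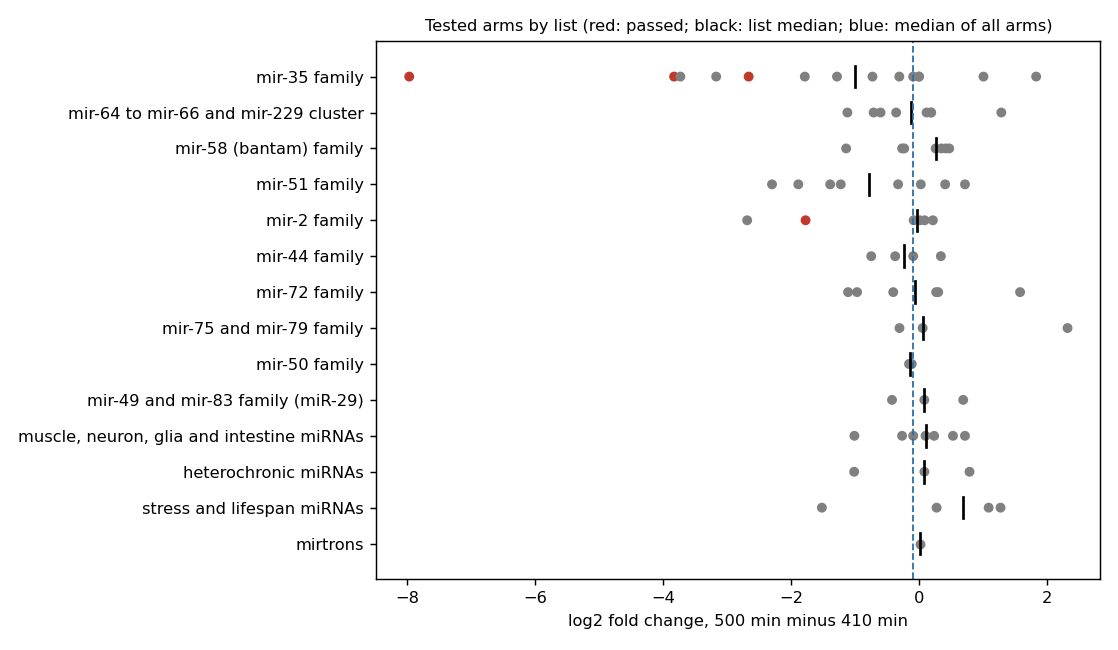
Log2 fold change (500 min minus 410 min, x axis) of every tested arm of each list, with arms that passed in red, the list median as a black bar and the median of all 128 arms, -0.09, as a dashed line. Calls appear in the mir-35 family (3) and the mir-2 family (1) among these lists.

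Of 7 tested arms of the tissue-restricted miRNAs mir-1, mir-124, lsy-6, mir-228 and mir-60 none passed (median log2 fold change 0.10), a count that says little where 6.25% of all arms passed, and no arm of mir-791, a miRNA of sensory neurons, had enough reads. Muscle miR-1-5p had 698, 707 and 372 CPM at 500 min and 654, 391 and 462 CPM at 410 min. lsy-6-3p, of the left taste neuron, had 152, 215 and 353 CPM at 500 min and 211, 361 and 294 CPM at 410 min. Neuronal miR-124-5p had 31, 1 and 30 reads at 500 min and 18, 11 and 85 reads at 410 min, and intestinal miR-60-3p had a log2 fold change of -1.01 ± 0.71 (edgeR adjusted p 0.723). miR-1-5p, lsy-6-3p, miR-124-5p and miR-60-3p all overlapped between the stages. The 3p arm of mir-1 had 65, 15 and 0 reads at 500 min and 59, 25 and 32 reads at 410 min. That of mir-124 had no read in these libraries. How the table assigns reads to arms was not tested, so these levels hold for the arms as the table names them.

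Glial miR-228-5p was the second most abundant arm at 500 min by share. It took 13.3%, 16.5% and 18.8% of counts at 500 min and 9.21%, 11.1% and 13.7% at 410 min, with an overlap through 410 min replicate 3. The log2 fold change was 0.72 ± 0.49 (edgeR adjusted p 0.704). miR-57-3p, from a hairpin active in the posterior of the embryo, led both stages with 25.4% ± 4.50 of counts at 500 min and 31.6% ± 3.47 at 410 min, and its scaled level had a log2 fold change of -0.09 ± 0.36. miR-72-5p took 12.2% ± 1.12 at 500 min and 11.8% ± 0.279 at 410 min (log2 fold change 0.27 ± 0.36). miR-235-3p, a relative of miR-92 that keeps larval blast cells quiescent in starved worms, was uneven within both stages. It had 57917, 58526 and 25399 CPM at 500 min and 52955, 14884 and 12464 CPM at 410 min, and the log2 fold change was 0.82 ± 0.68 (edgeR adjusted p 0.816).

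Few or no reads came from markers of larval and adult tissue, here the miRNAs that time larval development. How the table assigns reads to arms was not tested, so an arm with no read was not shown to be absent. Of 12 arms of let-7, lin-4, mir-48, mir-84, mir-241 and mir-237, 5 had any read in the 6 libraries. let-7, mir-84 and mir-237 had none, and lin-4 had 1 read at 410 min. Their summed share was 0.00286% to 0.0240% at 500 min and 0.00809% to 0.0222% at 410 min, most of it from miR-48-5p, which had 118 reads over the libraries of 500 min and 260 over those of 410 min. Both tested arms of mir-48 and the tested arm of mir-795 did not pass, 3 in all (median log2 fold change 0.08). Of the miRNAs tied to stress and lifespan, 4 arms of mir-34, mir-71 and mir-246 were tested and none passed (median log2 fold change 0.68). For both lists the lack of a call says little where 6.25% of all arms passed. miR-71-3p had 297, 527 and 549 CPM at 500 min and 61.8, 240 and 340 CPM at 410 min (log2 fold change 1.09 ± 0.81, edgeR adjusted p 0.744). The single mirtron tested, miR-1018, had a log2 fold change of 0.02 ± 0.95.

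The use of the arms within a hairpin can be read without any scaling between libraries. It was examined after the values had been seen, in the 27 hairpins with both arms tested and at least 20 reads in each of the 6 libraries. In mir-87, a hairpin in an intron of kup-1 on chromosome V (12038688 to 12038781), the leading arm differed between the stages. The 3p arm took 72.0%, 62.1% and 66.5% of the hairpin's reads at 500 min, against 39.9%, 37.1% and 41.6% at 410 min. All 500 min libraries favoured the 3p arm and all 410 min libraries the 5p arm. The means were 66.9% ± 4.99 at 500 min and 39.5% ± 2.30 at 410 min, with SD over 3 libraries each (exact two-sided permutation p 0.1, the smallest that 3 against 3 allows).

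Levels of both arms of mir-87 lay apart between the stages, though neither passed the test by itself. miR-87-3p had 7075, 7405 and 5673 CPM at 500 min and 3688, 3636 and 4090 CPM at 410 min (log2 fold change 0.82 ± 0.68, edgeR adjusted p 0.816). miR-87-5p had 2749, 4528 and 2858 CPM at 500 min and 5546, 6170 and 5737 CPM at 410 min (log2 fold change -0.78 ± 0.51, edgeR adjusted p 0.693). The 3p arm was higher and the 5p arm lower in every library of 500 min. Earlier in the timecourse the 3p arm took 15.8% ± 17.8 at 60 min, where the SD exceeds the mean. It took 45.5% ± 14.0 at 120 min and 48.2% ± 7.13 at 180 min. Later it took 48.6% ± 3.53 at 225 min, 21.6% ± 0.807 at 270 min and 15.4% ± 2.31 at 330 min.

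**Figure D5:**
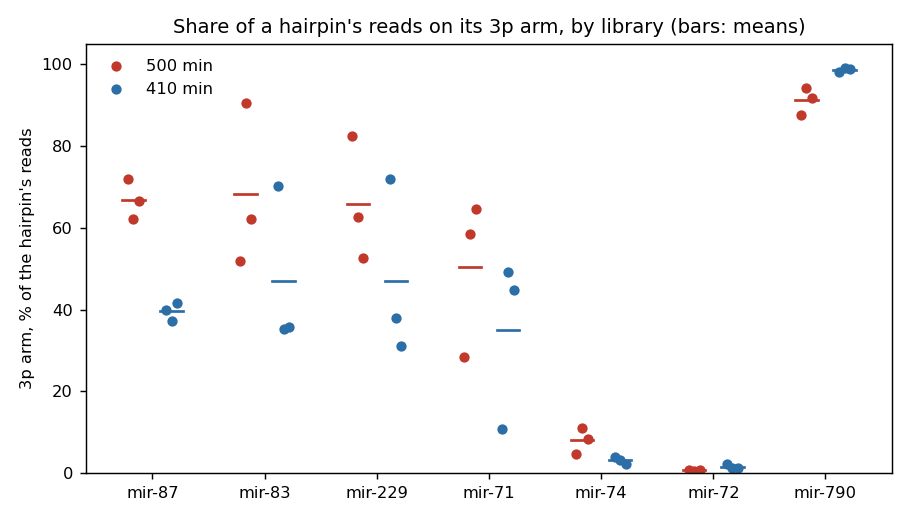
Share of each hairpin's reads on its 3p arm (y axis, %) in the 3 libraries of 500 min (red) and the 3 of 410 min (blue), with bars at the means, for the hairpins whose stages do not overlap or differ by more than 10 percentage points. mir-87 stands out with groups that are far apart and tight, while mir-83, mir-229 and mir-71 have overlapping libraries.

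The 3p share did not overlap between the stages in 4 of the 27 hairpins (14.8%). Besides mir-87, it was higher at 500 min in mir-74 (7.97% ± 3.13 at 500 min and 3.09% ± 0.872 at 410 min) and lower in mir-790 (91.2% ± 3.28 and 98.7% ± 0.529) and mir-72 (0.622% ± 0.204 and 1.47% ± 0.535). Each has the same smallest exact p of 0.1, which is also the share of hairpins expected to separate without a difference between the stages. mir-790 is among the 27 only because miR-790-5p passed the filter through its reads at 500 min, so its lower 3p share there is not separate from that choice. In mir-229 the 3p arm took 82.4%, 62.7% and 52.6% at 500 min and 71.9%, 38.0% and 31.1% at 410 min, wide ranges that overlap. The share rests on how the table assigns reads to arms.

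Neither the number of arms seen nor the weight of the most abundant ones passed a test. Thinned to 221286 counts, a library was expected to show 126 ± 11.8 arms at 500 min and 135 ± 5.40 at 410 min, with SD over 3 libraries each (exact two-sided permutation p 0.4). The 10 most abundant arms held 87.8% ± 1.06 of counts at 500 min and 89.6% ± 1.53 at 410 min (exact two-sided permutation p 0.2). With 3 libraries a stage this test cannot go below 0.1. Within pairs of the same replicate number the share of the 10 most abundant arms was lower at 500 min in 3 of 3, with differences of -1.21, -1.97 and -2.13 percentage points (exact two-sided sign permutation p 0.25, the smallest that 3 pairs allow), and the number of arms was lower in 2 of 3 (p 0.5 by the same exact test). At 500 min 192 arms had reads, 38 of them with none at 410 min, and at 410 min 189 had reads, 35 of them with none at 500 min. Apart from miR-788-3p, the arms seen at 500 min alone were too rare to be tested.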

How the data were processed

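Small RNA libraries were made from pooled whole embryos with TRIzol and the Illumina TruSeq Small-RNA kit, per the labels' protocols. The deposited table holds raw read counts of mature miRNA arms in all 24 libraries. The submitters' processing notes name Bowtie and HTSeq; not given in the sources used here are their roles, versions and settings, the genome build, the annotation, and how strand and reads with several matches were handled. Levels can therefore depend on how reads of similar miRNAs were shared out.

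Counts were fitted with edgeR 4.0.16 in R 4.3.3 (quasi-likelihood F-test, TMM factors, filterByExpr with a minimum count of 10), with stage as the factor over all 24 libraries, so that the spread is estimated over 8 stages. P-values were adjusted by Benjamini-Hochberg over all 128 arms kept, with a threshold of 0.05. SE is the log2 fold change divided by the square root of F. The test was run on simulated data first. Where one stage had no reads, the bound uses 3 counts over its 3 libraries in place of 0. Shares and 3p shares come from unscaled counts, with exact two-sided permutation tests over libraries. Alternatives used limma 3.58.1 (voom), DESeq2 1.42.0, other scalings and filters, the 6 libraries alone, a replicate block and left-out libraries; thinning to equal depth was added after the data were seen.

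The labels number replicates 1 to 3 in each stage. Deviations from stage means correlated at 0.110, 0.145 and 0.157 for same-numbered libraries of 500 and 410 min and at -0.139 to -0.0248 for others. Deviations from a stage mean cancel within the stage, so the negative values follow largely from the positive ones and are not separate evidence. The main fit did not pair the libraries, and pairing by number was run only as an alternative. The labels do not say what a number marks.

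Named are the arms that passed, the next by p until 10 in a direction, the 10 most abundant and members of miRNA family and tissue lists. The members and lists were chosen with earlier results of these data known. miR-242, miR-76-3p, miR-231-3p, miR-67-3p, miR-87-5p and miR-790-3p were named after their values were seen. Positions come from the WBcel235 annotation, matched by hairpin name.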

Additional observations from a re-analysis of the deposited data

How the results depend on the processing

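The 3 rises were called under every alternative and with any 1 of the 6 libraries left out, and the number of arms called higher stayed at 3 or 4 except in the fit of the 6 libraries alone, which called 7. The falls were less firm. Against 5 as reported, 2 were called with DESeq2 size factors, 8 with total counts, 2 with no filter, 2 with a minimum count of 30, 1 by limma-voom, 3 in the fit of 6 libraries and 3 with the libraries thinned to equal depth, an alternative chosen after seeing the data. The DESeq2 test called 4 higher and 7 lower, and dropping the 5 most abundant arms left 3 and 5. With the replicate block 3 were called higher and 6 lower; of the named calls it changed those of miR-35-3p, miR-36-3p and miR-74-5p alone. Leaving out 1 library gave 3 to 3 higher and 1 to 6 lower calls. The cause was not tested.

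The difference in the share of the most abundant arms, -1.77 percentage points for 10 arms, was 0.117 for 5 arms and 0.451 for 20, and -2.57 to -1.05 with a library left out; pairing by replicate number, added after seeing the data, leaves the differences as they are. The difference in arms expected at equal depth, -8.43, was -9.20 at 100000 counts and -15.1 to -3.84 with a library left out.

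Of 38 named arms that did not pass, 9 changed sign somewhere, in 37 of 824 fits, and 15 fits called such an arm in the same direction. With DESeq2 size factors, no filter, a minimum count of 30 and the DESeq2 test, the log2 fold change of miR-57-3p was 0.12, 0.051, 0.10 and 0.12, and that of miR-44-5p was 0.069, 0.063, 0.21 and 0.070. It was -0.16, -0.15 and -0.017 for miR-48-5p with total counts, limma-voom and without the 5 most abundant arms, -0.19 and -0.026 for miR-790-3p with total counts and without those arms, -0.027 for miR-124-5p with limma-voom, and 0.035 for miR-66-5p with a minimum count of 30. With 1 library left out it ran from -0.35 to 0.11 for miR-57-3p, -0.015 to 0.45 for miR-72-5p, -0.17 to 0.54 for miR-82-3p, -0.40 to 0.073 for miR-44-5p, -0.13 to 0.48 for miR-1-5p, -0.33 to 1.15 for miR-124-5p, -0.51 to 0.53 for miR-48-5p and -0.25 to 0.20 for miR-790-3p.

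Depth limits the low arms: 3 counts over a stage correspond to 3.84 CPM at 500 min and 1.62 CPM at 410 min, and miR-8199-5p, miR-35-3p, miR-39-5p and miR-41-5p had 204 or fewer reads at 410 min.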
